A study of Mus musculus with 97 samples.

Results

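The comparison described here is the developmental change of the control cortical lineage: green cells of the Emx1 lineage sorted at embryonic day 16 (E16) against the same kind of cells at E13. Members were chosen as the control libraries of the Cdk5r1 data set at these ages with at least 50% uniquely aligned reads, which are 20 of the 97 libraries of the series: 8 at E13 and 12 at E16. The library labelled E13 replicate 2 is among them, and its Cdk5r1 level is examined before the results.

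The series uses mosaic analysis with double markers (MADM) on chromosome 11 to compare cells that lose a gene sparsely with cells in a whole mutant tissue. Control animals of the Cdk5r1 set carry MADM-11 GT/TG and Emx1-Cre and no mutant Cdk5r1 allele. They are mice on a CD1 background, received no treatment, and were collected at E13, E16 and P0. Mosaic and knockout (KO) animals of the same set were collected at these ages too. Their E13 and E16 libraries are used here, except mosaic E13 replicates 2 and 5 and mosaic E16 replicate 5.

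The design sets limits on what the values stand for. Emx1-Cre drives recombination in dorsal telencephalic progenitors, so progenitors, projection neurons and any later glia of that lineage carry the label, and cells that arrive from elsewhere do not. Each library is 2000 sorted GFP+ cells of the cerebral cortex of 1 animal, made with SMART-Seq v2 from polyadenylated RNA. It therefore holds a mixture of cell types in unknown proportions, and other cells of the tissue are present only as far as the sort let them through.

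Cortical progenitors at E13 divide often and make deep-layer neurons. By E16 many of their daughters have left the cycle and migrate toward or settle in the upper layers, while the progenitors that stay begin to turn toward glial fates. Migration of the later-born neurons depends on Reelin signalling and on the kinase CDK5, whose activator p35 is encoded by Cdk5r1.

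Levels are given as CPM on 1 common scale, and 3 values in a row are the lowest, the median and the highest library of an age. Cdk5r1 was read in each of the 20 libraries. At E13 the libraries labelled replicates 1, 2, 3, 5, 6, 7, 8 and 9 held 54.7, 13.8, 70.8, 69.6, 55.8, 81.3, 124 and 35.4 CPM. At E16 replicates 1 to 12 held 168, 108, 211, 186, 215, 243, 205, 234, 246, 228, 176 and 204 CPM. The gene rose between the ages (log2 fold change 1.67, edgeR adjusted p 8.75e-06), with 1 of the 12 E16 libraries inside the E13 range. Cdk5r1 encodes p35, a protein of postmitotic neurons.

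The library labelled E13 replicate 2 has a Cdk5r1 level that goes against its genotype label. Its 13.8 CPM lies among the 5 KO libraries of the same age (10.3, 16.03 and 26.6) and under the 6 mosaic libraries that were kept (15.1, 27.5 and 30.9). The other 7 control libraries begin at 35.4. Counts are of the whole gene, and reads of the deleted and the kept part of a mutant allele were not told apart here. Relative to neuronal genes the level was low too: per 1000 CPM of the other newborn-neuron genes Cdk5r1 stood at 1.76 in this library, at 4.81, 7.44 and 11.2 in the other 7, at 1.47, 2.004 and 2.699 in KO and at 1.54, 2.92 and 3.29 in mosaic libraries, so on this measure it lies inside the ranges of both. Gm10039, a pseudogene on chromosome 11 that varies between animals of the set, gave 3.92 CPM there and 28.7 to 43.4 in the other 7. In KO at E13 it was 2.59, 3.12 and 51.3, and in mosaic libraries of E13 1.99, 3.80 and 48.4. Low values of Gm10039 were not limited to low Cdk5r1: E16 replicates 10, 11 and 12 held 1.74, 4.27 and 5.31 CPM beside Cdk5r1 levels of 228, 176 and 204.

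**Figure D1:**
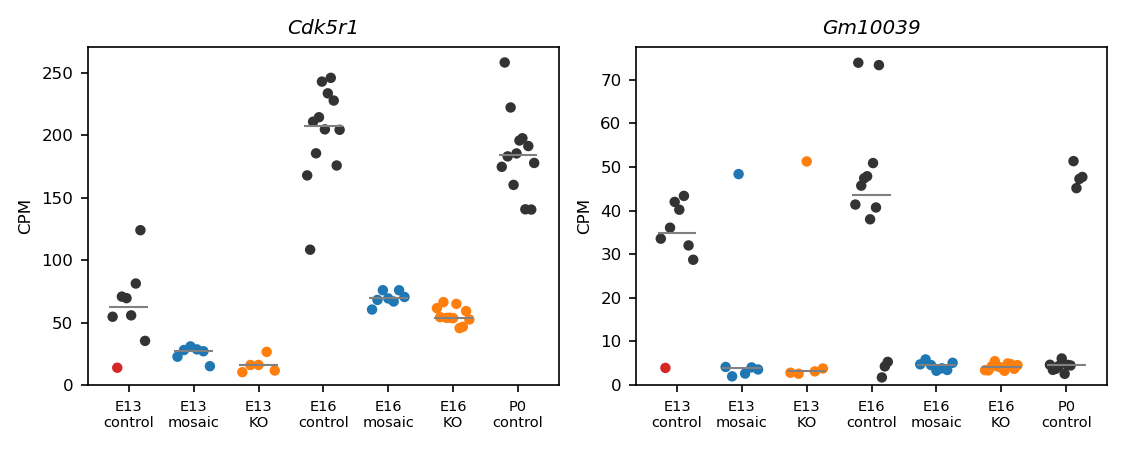
Levels of Cdk5r1 and Gm10039 in libraries of the Cdk5r1 set by genotype and age, without the mosaic and KO libraries of P0, which were not used. Grey lines are medians, and the library labelled E13 replicate 2 is in red.

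With this library set aside, 31 tested genes besides Cdk5r1 separated the 5 KO from the 7 remaining control libraries at E13 without overlap. Its level was on the KO side for 14, on the control side for 10 and between for 7. Of the 31 genes, 4 lie on chromosome 11, and it was on the KO side for all of them. On the other chromosomes it was on the KO side for 10, on the control side for 10 and between for 7. Over the 31 genes these are shares of 45.2% on the KO side and 32.3% on the control side. With each other control set aside in turn, the shares were 15 to 51.4% and 42.9 to 80%, and all separating genes of chromosome 11 were on the KO side as well, 4 for replicate 8 and 1 each for replicates 1, 3 and 7. In those counts the library labelled E13 replicate 2 stays among the controls, so Cdk5r1 separates the groups in none of them, and the shares do not compare on equal terms. The number of separating genes was then 20 to 35, near that found here. All these genes were picked from the same libraries, and how many would separate by chance alone was not tested. No conclusion on the genotype of the library is drawn from them. The 4 of the library labelled E13 replicate 2 are named after their values were seen: Galnt10 (21.1 against 4.86 to 15.8 CPM in the other controls), Fam114a2 (113.8 against 78.7 to 107.8), Aftph (16.3 against 23.6 to 32.5) and Tubd1 (3.92 against 6.57 to 18.1).

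The mean correlation of the library labelled E13 replicate 2 with the other E13 libraries was 0.936, within the 0.929 to 0.953 of that age, and on the first principal component it lay at -56.7 among E13 values of -73.7 to -47.7. In 95 tested genes it lay above 2 times the highest other control of its age, where each other control did so in 4 to 44, and in 94 under 0.5 of the lowest, where the others did so in 31 to 278. Embryonic beta globin Hbb-y reached 180.9 CPM in it and at most 3.84 in the other 7, beside 1.18, 71.7 and 108.9 in KO and 0.436, 0.964 and 329.8 in mosaic libraries of E13, and the summed meningeal fibroblast genes 317.8 against at most 19.4. Without this library Cdk5r1 rose by a log2 fold change of 1.51 (edgeR adjusted p 5.95e-07), and 6001 genes passed the test where 6267 did with it.

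At E16, replicates 2 and 12 stand apart from the other 10 libraries. The first principal component held 41.9% of the variance and split the ages, with E13 at -73.7 to -47.7 and E16 at 23.3 to 52.8. On the second, with 12.1%, E16 replicate 2 lay at 99.3 and replicate 12 at -40.6, while the other E16 libraries lay between -20.2 and 31.5 and every E13 library between -8.19 and 11.2. Their mean correlations with the other E16 libraries were 0.872 and 0.881, against 0.920 to 0.946 for the rest. Replicate 12 holds blood, microglial and interneuron transcripts described below, and replicate 2 the highest sum of mitochondrially encoded protein genes. The share of all mitochondrial reads in replicate 2 was 2.68%, within the 1.68, 2.67 and 4.03% of E16. Without both libraries 6690 genes passed, so results are given with them and the counts that rest on them also without.

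Reads on genes ranged over 1218697, 4167024.5 and 4550134 at E13 and 867748, 4753564.5 and 6946345 at E16 (exact permutation p 0.0417, adjusted p 0.167 over 4 library measures). The shares of uniquely aligned, extragenic and mitochondrial reads had adjusted p of 0.740, 0.740 and 0.841. Both ages hold both sexes by Xist and Y-linked genes.

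The test across genes found the ages far apart. Of 12645 tested genes, 6267 (49.6%) passed an edgeR adjusted p under 0.05, 3306 higher at E16 (26.1%) and 2961 lower (23.4%), around a median log2 fold change of 0.01. Beyond a 2-fold change were 1497 higher (11.8%) and 930 lower (7.35%). For 911 genes (7.2%) every E16 library lay above every E13 library, and for 724 (5.73%) below. These shares over all tested genes are the background of every count of a list below. In such sorted mixtures fewer cells of a type and less RNA per cell cannot be told apart, which holds for every change below.

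Among genes of at least 20 CPM on average, 6 of those with a rise at the smallest adjusted p come first. Ntm, which encodes the cell adhesion protein neurotrimin, rose from 4.89, 7.9 and 10.5 CPM to 65.8, 83.9 and 110.5 (log2 fold change 3.43, edgeR adjusted p 6.27e-14). Dync1i1, the neuronal intermediate chain of the motor dynein, rose (6.45, 10.1 and 14.8 to 89.6, 119 and 176 CPM, log2 fold change 3.55, edgeR adjusted p 6.61e-14). Prkar1b, a neuronal regulatory subunit of protein kinase A, followed (15.9, 20.6 and 37.5 to 173, 243 and 289 CPM, log2 fold change 3.36, edgeR adjusted p 6.61e-14). These 3 genes do not overlap between the ages. Mpped1, a metallophosphoesterase gene of the brain, rose from 111, 158 and 197 CPM to 702, 986 and 1197 (log2 fold change 2.66, edgeR adjusted p 6.61e-14). Nav2, a regulator of neurite growth, rose from 12.7, 15.7 and 19.9 CPM to 80.4, 136 and 222 (log2 fold change 3.14, edgeR adjusted p 9.35e-14), and Mef2c, a transcription factor of maturing projection neurons, rose (20.9, 27.2 and 30.5 to 119, 213 and 304 CPM, log2 fold change 3.09, edgeR adjusted p 4.81e-13). Every E16 library exceeded every E13 library in all 3.

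Of the genes with a decrease at the smallest adjusted p, 4 follow. Dmrt3, a transcription factor of early dorsal telencephalic progenitors, fell from 73.03, 161 and 183 CPM to 10.4, 15.3 and 21.9 (log2 fold change -3.26, edgeR adjusted p 6.61e-14). Hey1, a Notch effector that holds progenitors undifferentiated, went down (153, 219 and 267 to 23.2, 35.9 and 54.4 CPM, log2 fold change -2.56, edgeR adjusted p 5.38e-13). The zinc finger factor Sall1, which acts in early radial glia, fell (189, 231 and 386 to 27.7, 40.1 and 67.6 CPM, log2 fold change -2.58, edgeR adjusted p 3.43e-12). Exo1, an exonuclease of DNA repair in cycling cells, did the same (47.8, 65.7 and 84.9 to 6.93, 10.5 and 16.4 CPM, log2 fold change -2.65, edgeR adjusted p 1.83e-12). None of the 4 overlaps between the ages.

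Radial glia are the stem cells of this lineage, and their marker list changed in both directions. Of its genes, 9 were higher and 13 lower of 24 tested (26.1% higher and 23.4% lower over all tested genes), with a median log2 fold change of -0.75 (0.01 over all tested genes). The summed level was 6562, 7923 and 8549.5 CPM at E13 and 4909.6, 6227 and 7349 at E16, and the ages overlap. Pax6, the transcription factor that defines dorsal progenitors, fell from 277, 305 and 359.5 CPM to 59.6, 110 and 162 (log2 fold change -1.52, edgeR adjusted p 1.06e-09). Sox9, which maintains stem cells, fell (513, 783 and 896 to 179, 257 and 359.7 CPM, log2 fold change -1.50, edgeR adjusted p 1.55e-09). Nes, the intermediate filament of the radial fibre, fell from 253, 334 and 484 CPM to 43.8, 98.4 and 159 (log2 fold change -1.82, edgeR adjusted p 3.20e-08). Vim, a second filament gene and the member with the most reads at E13, fell (1049.7, 1289 and 1378 to 510.1, 771 and 1038 CPM, log2 fold change -0.70, edgeR adjusted p 1.26e-05). Rest, the repressor of neuronal genes in progenitors, fell (67.3, 95.5 and 124 to 5.88, 21.1 and 32.2 CPM, log2 fold change -2.27, edgeR adjusted p 4.61e-09). Each E16 library is under each E13 library in these 5.

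Other members of this list went up. Fabp7, a fatty acid carrier of radial glia and the most abundant of the list at E16, rose from 357, 451 and 543 CPM to 761, 1229 and 2050.2 (log2 fold change 1.53, edgeR adjusted p 1.16e-08). Slc1a3, the glutamate transporter GLAST, rose (55.4, 72.7 and 79.9 to 153, 225 and 301 CPM, log2 fold change 1.67, edgeR adjusted p 1.91e-10). Mfge8, a secreted glycoprotein, rose from 47.3, 78.5 and 113 CPM to 269, 345 and 528 (log2 fold change 2.14, edgeR adjusted p 8.70e-11). The ages do not overlap in any of them. For the late radial glia and early astroglia list, 13 were higher and 2 lower of 18 tested, with a median of 1.74. Its summed level rose from 1267, 1392 and 1532 to 1574, 1933 and 3172 CPM, without overlap, the highest in replicate 12.

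Of this list, 6 genes that rose are given with 3 others. Tnc, an extracellular matrix protein of outer radial glia and astroglia, rose from 4.05, 5.95 and 8.84 CPM to 88.8, 163 and 250.5 (log2 fold change 4.71, edgeR adjusted p 3.71e-13). Aldh1l1, a folate enzyme used as an astrocyte marker, rose from 0, 1.17 and 3.28 CPM to 29.5, 52.2 and 77.97 (log2 fold change 5.31, edgeR adjusted p 6.84e-12). Sparcl1, a secreted synapse organiser, rose (1.33, 4.04 and 14.7 to 35.3, 45.8 and 77.9 CPM, log2 fold change 3.33, edgeR adjusted p 7.70e-09). Clu, a lipid carrier, did so too (20.8, 27.9 and 38.8 to 67.3, 127 and 162 CPM, log2 fold change 2.13, edgeR adjusted p 1.98e-10), as did Mt3, a metal-binding protein (66.5, 94.3 and 117 to 213, 317 and 616 CPM, log2 fold change 1.87, edgeR adjusted p 3.09e-09). Slc1a2, the second astroglial glutamate transporter, rose from 8.21, 11.2 and 15.9 CPM to 17.9, 28.9 and 50.8 (log2 fold change 1.41, edgeR adjusted p 3.06e-06). For these 6 genes no E16 library was as low as any E13 library. Gfap, the mature astrocyte filament, named here after its values were seen, had no reads in 8 of 8 E13 libraries and 0.479, 6.49 and 11.6 CPM at E16. In the opposite direction Fgfr3, a growth factor receptor of early glial commitment, fell from 239.6, 312 and 458 CPM to 52.05, 83.7 and 146 (log2 fold change -1.87, edgeR adjusted p 3.35e-09), without overlap. Aldoc, a glycolytic enzyme and the member with the most reads at both ages, did not pass (327, 422 and 516 to 214, 390.5 and 499.5 CPM, log2 fold change -0.18, edgeR adjusted p 0.246), with overlap.

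Notch signalling keeps radial glia from differentiating, and most of its genes that changed went down. Of the list, 3 were higher and 18 lower of 29 tested (10.3 and 62.1%, beside 26.1 and 23.4% over all tested genes). The median was -0.80. Hes1, the main effector, fell from 424, 593 and 744 CPM to 103, 133 and 246 (log2 fold change -1.98, edgeR adjusted p 2.59e-10). Dll1, the ligand that newborn neurons and intermediate progenitors present, fell (137, 223 and 309 to 19.7, 32.1 and 50.9 CPM, log2 fold change -2.70, edgeR adjusted p 3.01e-12). Numb, an inhibitor of the receptor, fell from 31.01, 36.7 and 45.5 CPM to 8.83, 15.4 and 21.6 (log2 fold change -1.30, edgeR adjusted p 2.87e-07). Hes5, the most abundant effector, fell from 639, 817 and 1132 CPM to 219, 399 and 917 (log2 fold change -0.80, edgeR adjusted p 0.00263). Only Hes5 of these 4 overlaps between the ages. Jag2, another ligand, rose (1.33, 3.32 and 7.23 to 11.97, 18.9 and 35.4 CPM, log2 fold change 2.32, edgeR adjusted p 2.17e-07), and so did the Fringe gene Rfng, which modifies the receptor (66.3, 77.8 and 105 to 120.1, 166 and 197 CPM, log2 fold change 0.98, edgeR adjusted p 6.26e-08). Neither overlaps.

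Wnt pathway genes were lower at E16 for the most part: 4 were higher and 18 lower of 29 tested, with a median of -0.60. Lef1, a nuclear effector, fell from 37.6, 51.6 and 59.3 CPM to 5.62, 9.96 and 16.4 (log2 fold change -2.24, edgeR adjusted p 2.59e-10). Tcf7l1, the repressor of the same family, fell (39.4, 118 and 155 to 9.58, 18.1 and 33.5 CPM, log2 fold change -2.47, edgeR adjusted p 1.57e-09). The receptor gene Fzd9, active in the medial cortical wall, fell (77.1, 134 and 182 to 16.9, 33.5 and 49.9 CPM, log2 fold change -2.04, edgeR adjusted p 3.46e-09). The ages are apart in all 3. Sfrp1, a secreted antagonist, fell from 425, 806 and 845 CPM to 207, 393 and 561 (log2 fold change -0.86, edgeR adjusted p 7.21e-05), and the ages overlap. Apc2, a neuronal relative of the tumour suppressor, rose with overlap (147, 192 and 292 to 279, 375 and 607 CPM, log2 fold change 0.95, edgeR adjusted p 3.89e-06).

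Among fibroblast growth factor, hedgehog and BMP genes, 10 were higher and 12 lower of 29 tested, with a median of -0.29. The shares were 34.5 and 41.4%, beside 26.1 and 23.4% over all tested genes. Gli3, the hedgehog effector that patterns the dorsal telencephalon, fell from 135, 195 and 256 CPM to 34.9, 61.1 and 86.6 (log2 fold change -1.65, edgeR adjusted p 4.02e-09). Smo, the hedgehog transducer, fell from 70.6, 88.95 and 124 CPM to 21.4, 50.4 and 64.5 (log2 fold change -0.91, edgeR adjusted p 3.90e-05), and the receptor Fgfr2 fell (79.8, 106 and 136 to 32.2, 61.6 and 75.7 CPM, log2 fold change -0.83, edgeR adjusted p 1.69e-05). These 3 do not overlap. The inhibitors of differentiation, targets of BMP signals, split: Id1 rose from 9.72, 13.4 and 36.97 CPM to 38.03, 64.7 and 103 (log2 fold change 2.10, edgeR adjusted p 5.60e-08), Id2 rose from 183, 228 and 305 CPM to 486, 737 and 1131 (log2 fold change 1.76, edgeR adjusted p 3.85e-10), while Id4, a radial glial member, fell (127, 423 and 812 to 19.9, 86.03 and 155 CPM, log2 fold change -2.43, edgeR adjusted p 1.81e-05). Of these 3 genes Id4 alone overlaps between the ages.

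Of factors that time progenitor competence 5 were higher and 13 lower of 30 tested (16.7 and 43.3%, beside 26.1 and 23.4% over all tested genes). Their median was -0.23. Hmga2, a chromatin protein of young stem cells, fell from 6.56, 20.97 and 42.9 CPM to 0.217, 0.944 and 3.35 (log2 fold change -4.46, edgeR adjusted p 4.58e-10). Igf2bp1 fell (226, 249.8 and 323 to 49.2, 66.6 and 102 CPM, log2 fold change -1.86, edgeR adjusted p 4.75e-12) and Igf2bp2 likewise (53.3, 91.9 and 133 to 8.96, 14.8 and 29.3 CPM, log2 fold change -2.53, edgeR adjusted p 4.21e-10), both encoding RNA-binding proteins of early progenitors. Emx2, a patterning factor of the medial and caudal cortex, fell from 84.5, 134 and 179.8 CPM to 25.8, 43.2 and 50.9 (log2 fold change -1.67, edgeR adjusted p 5.51e-10). No E16 library reached the E13 range in these 4. Other members rose. Nfix, a nuclear factor I gene that promotes differentiation, rose from 415, 748 and 955 CPM to 855, 1731 and 2178 (log2 fold change 1.23, edgeR adjusted p 1.08e-06). Zbtb20, which acts in late-born neurons and astroglia, rose (38.2, 47.9 and 115 to 106, 149 and 289 CPM, log2 fold change 1.64, edgeR adjusted p 7.16e-06). Pou3f2, the upper-layer factor BRN2, rose from 33.1, 57.3 and 69.4 CPM to 94.7, 222 and 304 (log2 fold change 1.83, edgeR adjusted p 3.79e-08). Pou3f2 is the 1 of these 3 without overlap.

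Replication genes fell throughout. Of the list, 0 were higher and 43 lower of 43 tested, with a median log2 fold change of -1.31. Beside 5.73% of all tested genes that lay lower at E16 without overlap, 29 of the 43 did so. Their summed level was 5893, 6824 and 7355 CPM at E13 and 2379.8, 2709 and 3762 at E16. Cdt1, which licenses origins, fell from 181, 216 and 245 CPM to 29.3, 45.4 and 59.01 (log2 fold change -2.26, edgeR adjusted p 2.04e-13). Mcm5, a subunit of the replicative helicase, fell from 293, 363 and 429.6 CPM to 76.4, 96.6 and 118 (log2 fold change -1.90, edgeR adjusted p 5.75e-13). Mcm2, the member with the most reads at E13, fell (395, 512 and 572 to 133, 166 and 329 CPM, log2 fold change -1.44, edgeR adjusted p 5.69e-09), and Mcm3 of the same helicase fell (247, 303 and 391 to 67.1, 91.6 and 122 CPM, log2 fold change -1.70, edgeR adjusted p 9.69e-12). Lig1, the ligase that joins Okazaki fragments, fell (169, 195 and 237 to 64.3, 69.1 and 85.7 CPM, log2 fold change -1.45, edgeR adjusted p 1.83e-12). Uhrf1, which carries DNA methylation through replication, fell from 185, 219 and 266 CPM to 43.9, 58.9 and 74.3 (log2 fold change -1.93, edgeR adjusted p 7.93e-13). All 6 are free of overlap.

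Mitotic genes fell in the same way: 0 were higher and 45 lower of 45 tested, at a median of -1.50. Free of overlap were 29 of 45, beside the same 5.73% of all tested genes. The sum moved from 5309, 5934 and 7204 to 1599, 2249 and 3040.2 CPM. Aurka, the spindle pole kinase, fell from 128, 153 and 182 CPM to 29.3, 49.98 and 67.9 (log2 fold change -1.62, edgeR adjusted p 1.55e-10). Cdk1, the kinase that drives entry into mitosis, fell from 283, 318 and 347 CPM to 73.5, 134 and 157 (log2 fold change -1.34, edgeR adjusted p 5.46e-10). Ccna2, its cyclin partner, fell (274, 308 and 361 to 75.6, 111 and 146 CPM, log2 fold change -1.50, edgeR adjusted p 2.50e-10). Ube2c, which marks cyclins for destruction and is the most abundant of the list, fell from 478, 545 and 602 CPM to 97.3, 205 and 279 (log2 fold change -1.47, edgeR adjusted p 3.96e-09). Bub1b, a checkpoint kinase, fell (87.2, 113 and 181 to 30.3, 36.9 and 55.7 CPM, log2 fold change -1.64, edgeR adjusted p 5.68e-10). Each of these 5 separates the ages.

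Control of the G1 phase shifted less evenly, with 2 higher and 15 lower of 24 tested and a median of -0.84. The 2 higher became 1 without any of E13 replicates 1, 2, 3, 5, 6 and 9 or E16 replicates 2, 3, 4, 6, 7, 8 and 9. Ccnd2, the cyclin of cortical progenitors, fell from 1291, 1453 and 1765 CPM to 376, 522 and 639.7 (log2 fold change -1.51, edgeR adjusted p 3.41e-12). Ccne1, which starts S phase, fell from 65.4, 68.5 and 85.4 CPM to 10.6, 18.6 and 24.1 (log2 fold change -1.99, edgeR adjusted p 1.54e-11). Of the E2F genes, regulators of S phase entry and exit, the decreases were largest in E2f7 (68.9, 82.2 and 97.2 to 9.74, 17.3 and 26.5 CPM, log2 fold change -2.26, edgeR adjusted p 2.34e-11) and E2f2 (38.2, 49.4 and 58.8 to 2.83, 6.36 and 13 CPM, log2 fold change -2.78, edgeR adjusted p 1.77e-10). None of the 4 overlaps. Cdk4, the most abundant of the list, fell from 1545, 1917 and 2130.4 CPM to 1131, 1457 and 2040.2 (log2 fold change -0.37, edgeR adjusted p 0.00284), with overlap. Cdkn2d, an inhibitor expressed in postmitotic neurons, rose (44.6, 78.2 and 93.1 to 81.3, 102 and 162 CPM, log2 fold change 0.46, edgeR adjusted p 0.00736), and the ages overlap.

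**Figure D2:**
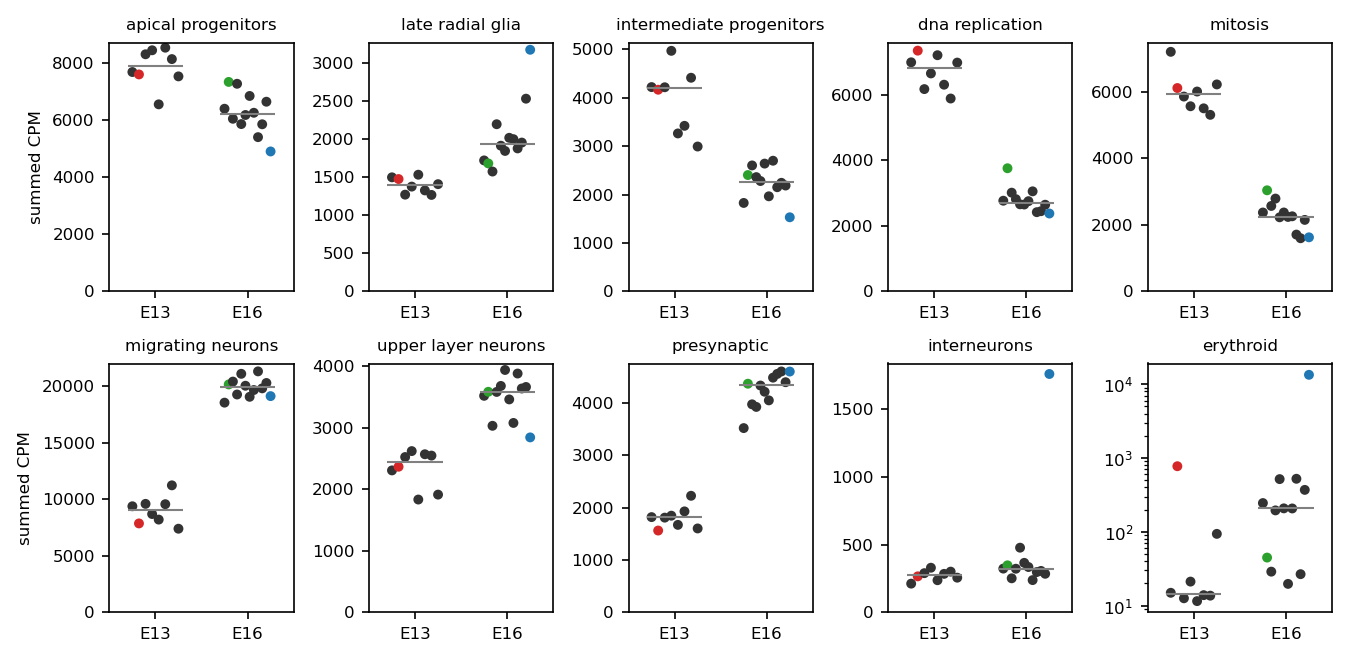
Summed CPM of 10 gene lists in each library at E13 and E16, with the erythroid panel on a log scale. Grey lines are medians, E13 replicate 2 is in red, E16 replicate 2 in green and E16 replicate 12 in blue.

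Known cell cycle elements were counted in the promoters of the cell cycle lists. In RefSeq promoters of GRCm38.p6, each 300 bases long, the element TTTGAA of mitotic genes is found in 32 of 39 promoters of the mitosis list, 5 of 41 of the replication list and 1404 of 12300 (11.4%) of tested genes. The CCAAT box is in 31 of 39, 24 of 41 and 4663 of 12300 (37.9%). An E2F site, TTTSSCGC with S for C or G, is in 3 of 39, 14 of 41 and 505 of 12300 (4.11%). The G1 list holds TTTGAA in 4, the CCAAT box in 10 and the E2F site in 5 of 22. Presynaptic genes, of which 32 of 39 were higher at E16, hold TTTGAA in 7 (18.9%), the CCAAT box in 8 (21.6%) and the E2F site in 1 (2.70%) of 37 promoters. Over all genes that fell, 208 of 3001 promoters (6.93%) hold the E2F site, and over all that rose 83 of 3443 (2.41%). TTTGAA is in 14.8% of the former and 9.99% of the latter, and the CCAAT box in 41.2 and 34.2%. The sequences below run 5′ to 3′ on the strand of the gene, and sites on the opposite strand read as their reverse complement. Only the sites named for each group are in capitals. Others stay in small letters, such as an E2F site in Cdk1 and CCAAT boxes in Mcm5, Mcm3 and E2f7, so the marks do not show elements limited to 1 group. Mitotic genes come first, with CCAAT and TTTGAA marked: Aurka at chr2:172370521-172370820, Cdk1 at chr10:69352863-69353162 and Ube2c at chr2:164769679-164769978.

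Aurka: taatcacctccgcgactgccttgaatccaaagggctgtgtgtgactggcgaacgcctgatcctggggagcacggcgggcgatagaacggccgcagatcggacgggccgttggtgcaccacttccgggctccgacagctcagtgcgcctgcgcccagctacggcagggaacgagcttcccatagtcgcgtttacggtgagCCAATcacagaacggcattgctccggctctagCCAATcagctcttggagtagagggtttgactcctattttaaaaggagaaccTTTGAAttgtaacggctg

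Cdk1: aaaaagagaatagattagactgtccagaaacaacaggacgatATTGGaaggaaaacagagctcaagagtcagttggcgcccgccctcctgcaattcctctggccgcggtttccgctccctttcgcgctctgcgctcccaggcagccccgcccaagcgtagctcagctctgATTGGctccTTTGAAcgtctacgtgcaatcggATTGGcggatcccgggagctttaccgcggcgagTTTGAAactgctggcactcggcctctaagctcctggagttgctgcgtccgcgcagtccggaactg

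Ube2c: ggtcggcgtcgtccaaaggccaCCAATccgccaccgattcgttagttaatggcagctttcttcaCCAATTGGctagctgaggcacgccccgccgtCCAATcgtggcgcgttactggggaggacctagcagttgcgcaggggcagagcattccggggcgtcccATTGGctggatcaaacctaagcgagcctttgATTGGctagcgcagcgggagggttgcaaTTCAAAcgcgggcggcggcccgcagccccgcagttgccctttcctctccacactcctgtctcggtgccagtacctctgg

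Replication genes and the E2F gene E2f7 follow, with the E2F site marked: Mcm5 at chr8:75109259-75109558, Mcm3 at chr1:20820263-20820562, Cdt1 at chr8:122567765-122568064 and E2f7 at chr10:110745189-110745488.

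Mcm5: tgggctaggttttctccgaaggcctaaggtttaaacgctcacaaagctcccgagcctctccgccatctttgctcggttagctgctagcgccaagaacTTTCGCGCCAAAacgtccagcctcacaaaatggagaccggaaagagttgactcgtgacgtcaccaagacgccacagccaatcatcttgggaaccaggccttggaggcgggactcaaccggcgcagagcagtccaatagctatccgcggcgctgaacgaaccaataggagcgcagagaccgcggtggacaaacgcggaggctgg

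Mcm3: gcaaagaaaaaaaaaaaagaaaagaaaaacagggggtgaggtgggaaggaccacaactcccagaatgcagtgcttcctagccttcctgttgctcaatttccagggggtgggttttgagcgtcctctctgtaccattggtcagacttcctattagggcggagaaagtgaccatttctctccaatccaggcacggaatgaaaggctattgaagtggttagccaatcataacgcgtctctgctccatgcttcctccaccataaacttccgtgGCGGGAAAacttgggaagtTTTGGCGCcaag

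Cdt1: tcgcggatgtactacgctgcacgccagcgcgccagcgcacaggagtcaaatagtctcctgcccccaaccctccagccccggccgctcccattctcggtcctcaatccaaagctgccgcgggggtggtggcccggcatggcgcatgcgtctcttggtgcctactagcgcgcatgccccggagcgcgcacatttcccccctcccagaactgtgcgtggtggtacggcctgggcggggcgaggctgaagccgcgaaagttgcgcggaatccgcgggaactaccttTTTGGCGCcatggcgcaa

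E2f7: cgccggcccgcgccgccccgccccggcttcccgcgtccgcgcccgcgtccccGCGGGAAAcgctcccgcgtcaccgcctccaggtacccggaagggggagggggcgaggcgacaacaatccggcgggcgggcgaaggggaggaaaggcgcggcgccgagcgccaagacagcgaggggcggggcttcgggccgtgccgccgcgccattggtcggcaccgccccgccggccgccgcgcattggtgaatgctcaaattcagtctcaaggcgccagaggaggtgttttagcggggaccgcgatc

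Genes of intermediate progenitors, whose basal divisions yield most projection neurons, were lower at E16 for the most part. Of their genes, 2 were higher and 11 lower of 18 tested, with a median of -0.95, and the summed level was 2993, 4191 and 4969 CPM at E13 and 1531, 2262 and 2699 at E16, without overlap. Neurog1, a proneural factor, fell from 48.4, 65.2 and 98.7 CPM to 2.53, 11.3 and 24.6 (log2 fold change -2.53, edgeR adjusted p 9.88e-08). Btg2, which marks neurogenic divisions, fell from 209, 249.8 and 279 CPM to 89.03, 106 and 148 (log2 fold change -1.13, edgeR adjusted p 1.01e-09). Gadd45g, the most abundant at E13, fell (336, 563 and 880.3 to 109, 129.8 and 456 CPM, log2 fold change -1.84, edgeR adjusted p 1.56e-06). The ages overlap for Gadd45g and not for the other 2. Insm1, which promotes delamination into the basal compartment, rose with overlap (26.3, 34.9 and 62.5 to 38.4, 69.7 and 93.7 CPM, log2 fold change 0.70, edgeR adjusted p 0.00573). It did not pass when E13 replicate 4 was kept (-0.32, adjusted p 0.589) or within libraries of the Gm28438 class of mitochondrial reads (0.66, adjusted p 0.0891). The defining factor Eomes, named after its values were seen, was 91.1, 196 and 297 CPM at E13 and 49.5, 153 and 238 at E16 (log2 fold change -0.33, edgeR adjusted p 0.218), did not pass, and overlaps. With E13 replicate 4 kept it did (-0.76, adjusted p 0.0402).

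Genes of newborn and migrating projection neurons gained in summed level, 7391, 9029.9 and 11221 CPM at E13 and 18523, 19900.4 and 21285 at E16, without overlap. Of the list, 21 were higher and 1 lower of 28 tested, with a median of 1.06, and 2 were lower without E16 replicate 2. Mapt, the axonal microtubule protein tau, rose from 95.5, 126 and 169.7 CPM to 571, 1035 and 1331 (log2 fold change 3.03, edgeR adjusted p 6.61e-14). Tubb3, the neuronal beta tubulin and the most abundant of the list, rose (1245, 1513 and 1833 to 2935, 4132 and 4689 CPM, log2 fold change 1.42, edgeR adjusted p 6.05e-11). Stmn2, a regulator of growth cone microtubules, rose from 259, 287 and 389.7 CPM to 1133, 1255 and 1908 (log2 fold change 2.16, edgeR adjusted p 5.38e-13). Dcx, the microtubule protein of migrating neurons, rose (105, 144 and 213 to 216, 392 and 553 CPM, log2 fold change 1.38, edgeR adjusted p 1.12e-07). Nrp1, a semaphorin receptor that guides callosal axons, rose from 64.5, 77.5 and 102 CPM to 195, 298 and 389 (log2 fold change 1.87, edgeR adjusted p 8.28e-11). In these 5 the ages do not overlap. Rnd2, which acts as neurons leave the ventricular zone, fell from 176, 445 and 630 CPM to 115, 229 and 297 (log2 fold change -0.95, edgeR adjusted p 6.16e-04), against the direction of the list and with overlap.

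Among tubulin and microtubule genes, 20 were higher and 4 lower of 28 tested, with a median of 1.12. Tubb4a rose from 101, 139 and 163 CPM to 459, 552 and 713 (log2 fold change 2.09, edgeR adjusted p 5.38e-13) and Tubb2a rose from 126, 151 and 203 CPM to 376, 591 and 932 (log2 fold change 1.94, edgeR adjusted p 6.02e-11), both neuronal. Tubb5, a beta tubulin of progenitors and neurons and the most abundant of the list at E13, rose little (5859, 6454 and 6924 to 6442, 8332 and 8995 CPM, log2 fold change 0.33, edgeR adjusted p 0.00144). Tuba1b, the alpha tubulin of proliferating cells, fell from 239.7, 273 and 344 CPM to 130.4, 168 and 215 (log2 fold change -0.72, edgeR adjusted p 1.35e-06), and Tuba4a fell (34.2, 46.8 and 67.3 to 11.4, 16.9 and 27.8 CPM, log2 fold change -1.37, edgeR adjusted p 8.59e-07). Of these, Tubb5 alone overlaps between the ages.

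Upper-layer genes rose for the most part. Of the list, 17 were higher and 2 lower of 20 tested, with a median of 1.16. Cux2, a factor of layers II to IV, rose from 18.1, 31.9 and 38.3 CPM to 128, 167 and 542 (log2 fold change 2.70, edgeR adjusted p 3.07e-09). Lmo4, a transcriptional adaptor, rose (54.98, 104 and 136 to 199, 312 and 428 CPM, log2 fold change 1.60, edgeR adjusted p 1.63e-08). Ptn, a secreted growth factor and the most abundant of the list at E16, rose from 205, 231 and 291 CPM to 349, 478 and 678 (log2 fold change 1.02, edgeR adjusted p 1.15e-07). Cux2, Lmo4 and Ptn do not overlap. Lhx2, which also maintains progenitors, fell from 428, 1044 and 1167 CPM to 175, 462 and 604 (log2 fold change -1.14, edgeR adjusted p 2.16e-04), with overlap.

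Deep-layer genes split, with 8 higher and 6 lower of 18 tested (44.4 and 33.3%, beside 26.1 and 23.4% over all tested genes). Their median was 0.15. Their summed level was 1207, 1589 and 1785 CPM at E13 and 940.1, 1098 and 1629.8 at E16, with 8 of the 12 E16 libraries under every E13 library and the ages overlapping. Fezf2, the determinant of subcerebral neurons that progenitors also express, fell from 206, 400 and 495 CPM to 88.2, 162 and 284 (log2 fold change -1.19, edgeR adjusted p 2.16e-06). Rprm, a corticothalamic marker and the most abundant of the list at E16, fell from 329, 371 and 437 CPM to 133, 174 and 279.7 (log2 fold change -0.96, edgeR adjusted p 1.89e-07). Rprm does not overlap and Fezf2 does. Ldb2, a cofactor of LIM proteins, rose from 8.16, 10.1 and 16.2 CPM to 37.4, 58.8 and 85.5 (log2 fold change 2.39, edgeR adjusted p 3.22e-11), and Crym, a thyroid hormone binding protein, rose from 2.89, 9.55 and 18.8 CPM to 51.2, 79.05 and 108 (log2 fold change 3.06, edgeR adjusted p 3.10e-09). Bcl6, a repressor that drives neurogenic conversion, rose from 2.46, 3.23 and 6.62 CPM to 16.2, 22.1 and 56.04 (log2 fold change 2.65, edgeR adjusted p 5.16e-09). Those 3 are free of overlap. Tbr1, the layer VI determinant, named after its values were seen, was 55.1, 179 and 308 CPM at E13 and 72.97, 154 and 199.9 at E16 (log2 fold change -0.13, edgeR adjusted p 0.699), did not pass, and overlaps.

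Subplate genes gave 3 higher and 6 lower of 10 tested (30 and 60%, beside 26.1 and 23.4% over all tested genes). Their median was -1.003 and their sum 391, 454 and 474 CPM at E13 and 141, 218 and 269 at E16. Nxph4, a neurexin ligand and the most abundant of them, fell from 131, 177 and 217 CPM to 28.6, 80.96 and 124 (log2 fold change -1.15, edgeR adjusted p 1.14e-05). Lpar1, a lysophosphatidic acid receptor, fell from 74.9, 86.7 and 109 CPM to 13.4, 28.4 and 50.1 (log2 fold change -1.55, edgeR adjusted p 3.47e-08). Neither overlaps. Cplx3, a late subplate marker, was at 3 reads or fewer in all 20 libraries. For Cajal-Retzius cells, 2 were higher and 2 lower of 10 tested (20% each, beside 26.1% higher and 23.4% lower over all tested genes). Their median was -0.41, and 4 were lower of 9 without E16 replicate 12. Ebf2, a factor of these cells, fell from 6.499, 11.3 and 15.5 CPM to 0, 0.0838 and 4.296 (log2 fold change -4.05, edgeR adjusted p 7.89e-06), and Nhlh2, found in early neurons, fell (28.7, 36.5 and 40.8 to 8.54, 13.7 and 25.5 CPM, log2 fold change -1.34, edgeR adjusted p 2.85e-06), both without overlap.

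Synaptic genes rose widely. On the presynaptic side 32 were higher and 2 lower of 39 tested, with a median of 1.56 and a sum of 1562, 1813 and 2225 CPM at E13 and 3516, 4345 and 4596 at E16, without overlap. Syt5, a calcium sensor of vesicles, rose from 19.4, 26.1 and 34.6 CPM to 107, 145 and 179 (log2 fold change 2.44, edgeR adjusted p 5.91e-13). Syn1, which tethers vesicles, rose from 20.5, 28.6 and 38.3 CPM to 106, 124 and 163 (log2 fold change 2.14, edgeR adjusted p 5.91e-13). Rab3a, the vesicle GTPase and the most abundant at E16, rose (145, 229 and 297 to 502, 714 and 847 CPM, log2 fold change 1.65, edgeR adjusted p 6.05e-11). Cplx1, a clamp of fusion, rose from 16.4, 28.2 and 36.1 CPM to 100.3, 132 and 160.2 (log2 fold change 2.27, edgeR adjusted p 3.43e-12). The ages are apart for all 4. Slc17a7, the vesicular glutamate transporter, fell from 18.9, 51.6 and 62.6 CPM to 3.99, 25.2 and 46.1 (log2 fold change -0.84, edgeR adjusted p 0.0172), against the direction of its list and with overlap.

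On the postsynaptic side 30 were higher and 2 lower of 38 tested, with a median of 1.30. Camk2b, a kinase of spines, rose from 15.1, 19.1 and 26.5 CPM to 54.3, 206 and 279 (log2 fold change 3.36, edgeR adjusted p 1.02e-11). Grin2b, the NMDA receptor subunit of the embryonic cortex, rose from 3.92, 13.2 and 16.6 CPM to 77.6, 106 and 178 (log2 fold change 3.20, edgeR adjusted p 3.06e-11). Shank1, a scaffold, rose (13.01, 24.8 and 34.8 to 66.4, 91.04 and 182 CPM, log2 fold change 2.08, edgeR adjusted p 1.23e-08). The 3 do not overlap. Gria2, the AMPA receptor subunit that limits calcium entry, rose from 22.2, 29.1 and 62.5 CPM to 58.4, 111 and 157 (log2 fold change 1.71, edgeR adjusted p 5.98e-08), with overlap. Homer2, a scaffold, fell from 22.2, 33.05 and 42.3 CPM to 8.43, 10.9 and 18.8 (log2 fold change -1.45, edgeR adjusted p 1.73e-07), against the list and without overlap.

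Ion channel genes rose without exception among those that passed: 27 were higher and 0 lower of 35 tested, with a median of 1.46. Scn3b, a sodium channel subunit, rose from 14.04, 16.3 and 31.2 CPM to 48.2, 85.9 and 121 (log2 fold change 2.24, edgeR adjusted p 8.01e-11), and Cacna1c, an L-type calcium channel, rose from 6.22, 8.93 and 12.8 CPM to 21.1, 36.1 and 46.3 (log2 fold change 1.95, edgeR adjusted p 1.17e-09). Kcnk2, a leak channel that acts in migration, rose (4.82, 7.93 and 13.2 to 26.9, 34.7 and 47.3 CPM, log2 fold change 2.12, edgeR adjusted p 3.84e-10). None of these overlaps. Scn2a, the axonal sodium channel, also rose (0.9599, 2.57 and 4.401 to 7.19, 16.96 and 26.6 CPM, log2 fold change 2.68, edgeR adjusted p 4.25e-08), without overlap.

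Axon guidance and adhesion genes gave 26 higher and 5 lower of 54 tested, with a median of 0.37, and 9 or 8 were lower without E16 replicate 1 or 12. Chl1 rose from 6.001, 11.2 and 25.4 CPM to 68.01, 96.3 and 173 (log2 fold change 3.00, edgeR adjusted p 4.40e-10) and L1cam rose from 59.8, 88.3 and 105 CPM to 143, 205 and 285 (log2 fold change 1.24, edgeR adjusted p 7.25e-09), adhesion molecules of the same family. Sema3c, a semaphorin that attracts callosal axons, rose from 4.45, 10.7 and 18.1 CPM to 38.4, 70.4 and 104 (log2 fold change 2.76, edgeR adjusted p 1.06e-09). The ages do not overlap in these. Cntn2, the adhesion protein of corticofugal axons and the most abundant at E16, rose (134, 211 and 300.3 to 310.2, 765 and 1639 CPM, log2 fold change 1.86, edgeR adjusted p 6.66e-07), without overlap. Robo3, a receptor of early axons, fell from 5.15, 8.56 and 18.6 CPM to 0, 0 and 2.53 (log2 fold change -5.41, edgeR adjusted p 3.18e-07), without overlap. Efnb1, an ephrin of progenitors, fell from 253, 484 and 543 CPM to 125, 275 and 375 (log2 fold change -0.80, edgeR adjusted p 2.78e-04), with overlap.

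In the Reelin and CDK5 pathway, through which Cdk5r1 acts, 16 were higher and 4 lower of 36 tested, with a median of 0.33 and a sum of 5977, 6099 and 6691 CPM at E13 and 7047, 7877 and 9948 at E16, without overlap. Cdk5, the kinase itself, rose from 57.01, 87.2 and 103 CPM to 118, 162 and 189.8 (log2 fold change 0.95, edgeR adjusted p 1.37e-07), without overlap. Dab1, the intracellular adaptor of Reelin receptors, rose from 112, 166 and 194 CPM to 190.3, 339.9 and 424 (log2 fold change 0.99, edgeR adjusted p 6.42e-06), with overlap. Pafah1b3, a subunit of the LIS1 complex, rose (281, 374 and 414 to 499.8, 593 and 751 CPM, log2 fold change 0.71, edgeR adjusted p 8.49e-07), and Pak1, a kinase downstream of p35, rose (85.7, 104 and 113 to 134, 149 and 198 CPM, log2 fold change 0.61, edgeR adjusted p 3.45e-06). Nde1, a LIS1 partner in dividing progenitors, fell from 121, 152 and 174 CPM to 37.8, 66.4 and 94.2 (log2 fold change -1.23, edgeR adjusted p 1.50e-07). The last 3 are free of overlap. Cdk5r2, the second activator, named after its values were seen, rose (0.821, 2.67 and 5.03 to 0.798, 15.1 and 20.97 CPM, log2 fold change 2.19, edgeR adjusted p 9.37e-05), and the ages overlap. Per kilobase of exon the medians at E16 were 49.9 for Cdk5r1 and 5.41 for Cdk5r2 (RPKM).

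Among subunits of the BAF chromatin complex, 9 were higher and 8 lower of 23 tested. The shares were 39.1 and 34.8%, beside 26.1 and 23.4% over all tested genes. Their median log2 fold change was 0.19, and 5 subunits were lower without E13 replicate 7. Actl6b, the neuronal subunit, rose from 39.7, 47.4 and 62.5 CPM to 206, 249 and 295 (log2 fold change 2.32, edgeR adjusted p 2.04e-13), while Actl6a, its progenitor counterpart, fell from 213, 226 and 287 CPM to 84.1, 111 and 158 (log2 fold change -1.09, edgeR adjusted p 2.35e-09). Ss18l1, the neuronal subunit CREST, rose from 28.01, 49.3 and 80.4 CPM to 103, 118 and 148 (log2 fold change 1.29, edgeR adjusted p 5.39e-08), while its counterpart Ss18 fell (55.6, 73.97 and 91.9 to 28.6, 43.3 and 73.6 CPM, log2 fold change -0.75, edgeR adjusted p 1.95e-04). Of the BAF45 subunits, Dpf1 rose (43.3, 90.8 and 125 to 132, 227 and 368 CPM, log2 fold change 1.40, edgeR adjusted p 1.34e-06) and Dpf2 fell (135, 154 and 162 to 76.4, 108 and 133 CPM, log2 fold change -0.52, edgeR adjusted p 1.25e-04). Of the 6, Ss18 alone overlaps between the ages. Smarca4, the ATPase and most abundant member, went from 804, 905 and 1132 CPM to 478, 924 and 1084 (log2 fold change -0.09, edgeR adjusted p 0.555), without passing and with overlap.

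Among splicing and RNA-binding factors, 13 were higher and 6 lower of 30 tested (43.3 and 20%, beside 26.1 and 23.4% over all tested genes). Their median was 0.04. Ptbp1, the repressor of neuronal exons, fell from 262, 307 and 388 CPM to 47.4, 137 and 185 (log2 fold change -1.23, edgeR adjusted p 6.37e-07). Rbfox1, a neuronal splicing factor, rose from 12.3, 20.2 and 28.3 CPM to 88.95, 97.6 and 127 (log2 fold change 2.35, edgeR adjusted p 4.82e-12). Nova2, which acts in migrating neurons, rose from 32.5, 45.4 and 61.3 CPM to 70.99, 107 and 146 (log2 fold change 1.18, edgeR adjusted p 6.33e-07), and Celf4, a translational regulator, rose (45.95, 63.4 and 94.9 to 100.1, 132 and 222 CPM, log2 fold change 1.03, edgeR adjusted p 2.41e-06). All 4 are free of overlap. Among DNA methylation and Polycomb genes there were 1 higher and 11 lower of 28 tested, with a median of -0.32. Cbx2, a Polycomb reader, fell from 97.2, 122 and 179.7 CPM to 25.7, 39.4 and 52.1 (log2 fold change -1.71, edgeR adjusted p 3.62e-10), and Dnmt1, the maintenance methyltransferase, fell from 232, 274 and 329 CPM to 98.3, 175 and 205 (log2 fold change -0.71, edgeR adjusted p 5.44e-06), both without overlap. The 1 riser was Ezh1, the Polycomb enzyme of postmitotic cells (6.56, 14.3 and 22.1 to 17.4, 26.3 and 45.02 CPM, log2 fold change 0.90, edgeR adjusted p 3.04e-04), with overlap.

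Among matrix genes there were 13 higher and 9 lower of 37 tested (35.1 and 24.3%, beside 26.1 and 23.4% over all tested genes), with a median of 0.41. Ncan, a proteoglycan of the neural matrix and the most abundant of the list at E16, rose from 276, 345 and 457 CPM to 591, 978 and 1196 (log2 fold change 1.43, edgeR adjusted p 8.94e-10). Spock1, a second proteoglycan, rose from 4.67, 6.68 and 9.71 CPM to 31.9, 45.9 and 93.9 (log2 fold change 2.97, edgeR adjusted p 4.30e-11). Col18a1, a basement membrane collagen, fell from 33.2, 43.9 and 87.8 CPM to 4.42, 8.44 and 21.5 (log2 fold change -2.53, edgeR adjusted p 1.18e-08). None overlaps between the ages.

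Glycolytic genes fell for the most part: 6 were higher and 14 lower of 23 tested, with a median of -0.58. The shares were 26.1 and 60.9%, beside 26.1 and 23.4% over all tested genes. Hk2, the hexokinase of growing cells, fell from 57.4, 69.4 and 103 CPM to 15.9, 20.4 and 29.4 (log2 fold change -1.77, edgeR adjusted p 5.07e-10), whereas Hk1, the form of neurons, rose from 34.1, 50.99 and 77.3 CPM to 97.9, 147 and 199 (log2 fold change 1.50, edgeR adjusted p 1.03e-08). Pkm, the pyruvate kinase gene and the member with the most reads, fell from 1020.3, 1200 and 1510.1 CPM to 547, 687 and 891 (log2 fold change -0.77, edgeR adjusted p 5.26e-07), and Eno2, the neuronal enolase, rose (11.3, 15.3 and 21.9 to 25.2, 40.6 and 56.1 CPM, log2 fold change 1.42, edgeR adjusted p 8.37e-08). No E13 library lies in the E16 range of these 4. Of cholesterol synthesis genes 3 were higher and 4 lower of 22 tested (13.6 and 18.2%, beside 26.1 and 23.4% over all tested genes). Their median was 0.10, and 5 were higher without E16 replicate 2. Tm7sf2, a sterol reductase, rose from 21.7, 30.3 and 40.01 CPM to 42.8, 62.7 and 82.1 (log2 fold change 1.01, edgeR adjusted p 8.12e-07), without overlap.

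Ribosomal protein genes gave 0 higher and 11 lower of 55 tested (20% lower, beside 23.4% over all tested genes), with a median of -0.16, and 17 were lower without E16 replicates 2 and 12. Rpl3, a core protein of the large subunit, fell from 33.8, 55.2 and 101 CPM to 9.898, 23.8 and 40.9 (log2 fold change -1.27, edgeR adjusted p 3.70e-05), with overlap. For mitochondrially encoded genes there were 1 higher and 0 lower of 8 tested, with a median of 0.15. That count became 2 without E13 replicate 1 or E16 replicate 1, and 0 without any of E13 replicates 2, 3, 5, 8 and 9 or E16 replicates 8 and 12. Without both E16 replicates 2 and 12 there were 0 higher and 1 lower. mt-Cytb, a subunit of complex III, did not pass (2580.2, 3233 and 4809 to 2904, 3919.9 and 14372 CPM, log2 fold change 0.54, edgeR adjusted p 0.069) and overlaps, though without E13 replicate 1 or E16 replicate 1 it did (log2 fold change 0.64 and 0.59, edgeR adjusted p 0.0426 and 0.0417), as it did in 5 other alternatives, DESeq2 among them. Its highest level is in E16 replicate 2, and the sum of the list there was 28090.1 CPM against at most 15423 elsewhere. Immediate early and stress genes split as 7 higher and 7 lower of 18 tested, with a median of 0.71. Fos rose from 82.6, 173 and 379 CPM to 81.6, 605 and 1209.7 (log2 fold change 1.45, edgeR adjusted p 0.00694) and Jun fell from 482, 694 and 923 CPM to 95.9, 389 and 585 (log2 fold change -0.86, edgeR adjusted p 9.54e-04), activity and dissociation responders, both with overlap.

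**Figure D3:**
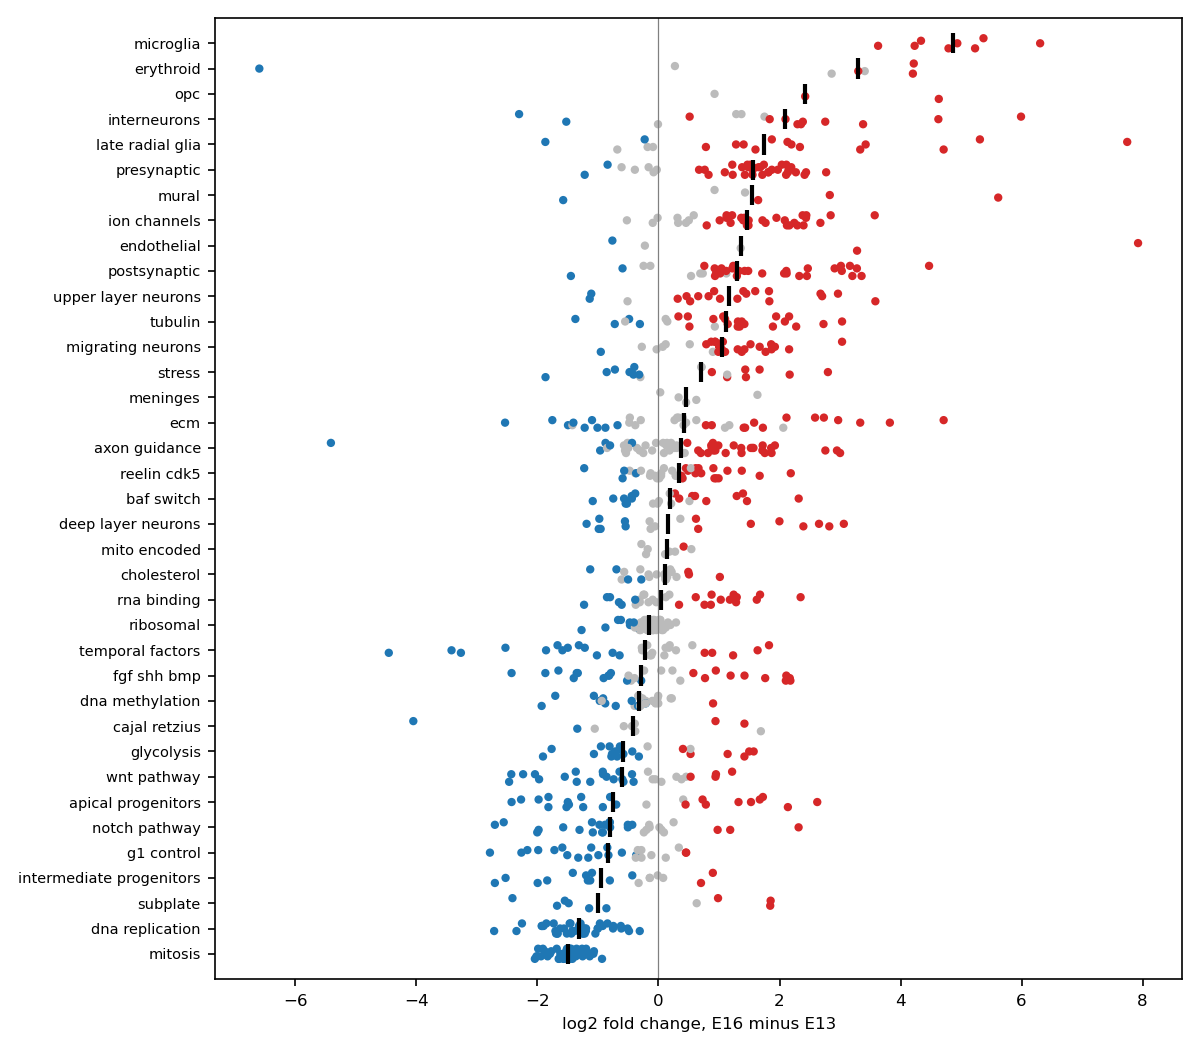
Log2 fold change (E16 minus E13) of each tested gene of 37 lists, with list medians as black bars. Genes that passed are in red (higher) or blue (lower).

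Lists of cells outside the Emx1 lineage follow, and the highest sums of the interneuron, red-cell, microglial, endothelial, mural and meningeal lists are all in E16 replicate 12. Interneurons reach the cortex from the ventral telencephalon, and of their genes 11 were higher and 2 lower of 17 tested, with a median of 2.10. Their sum was 213, 276 and 330.2 CPM at E13 and 239, 323 and 1762 at E16, the highest in replicate 12 and at most 478.4 in the other 11. Without that library 8 were higher and 2 lower of 15. Npy, a peptide of interneurons, rose from 0, 2.06 and 4.92 CPM to 58.5, 129 and 177 (log2 fold change 5.99, edgeR adjusted p 7.93e-13), without overlap and in every E16 library. At E16 it was the most abundant of the list, with a mean of 122 CPM, and which cells held it was not tested. Gad1, the enzyme of GABA synthesis, rose from 0.207, 0.899 and 4.103 CPM to 2.11, 6.65 and 70.5 (log2 fold change 3.38, edgeR adjusted p 5.88e-04), with overlap, its highest in replicate 12. Sp8, a factor that dorsal progenitors express as well, fell from 33.8, 39.6 and 53.9 CPM to 2.895, 5.97 and 20.97 (log2 fold change -2.30, edgeR adjusted p 1.46e-07), without overlap.

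Of erythroid genes 3 were higher and 1 lower of 7 tested, with a sum of 11.5, 14.4 and 774 CPM at E13 and 19.7, 207 and 13423 at E16. Apart from E16 replicate 12 the E16 libraries held 19.7 to 523 CPM, and apart from the library labelled E13 replicate 2 the E13 libraries held 11.5 to 93.7. The higher genes became 0 without E16 replicate 12 or any of E13 replicates 1, 3, 5 and 7, 1 without any of E13 replicates 6, 8 and 9, and 5 of 6 tested without the library labelled E13 replicate 2. Hbb-y fell from 0, 0.405 and 181 CPM to 0, 0 and 1.84 (log2 fold change -6.59, edgeR adjusted p 8.77e-04), and DESeq2 did not call it (-1.79, adjusted p 0.362). Its 180.9 CPM is in the library labelled E13 replicate 2, and the next highest E13 library held 3.84. The fall rests on that library, without which 0 erythroid genes were lower of 6 tested. Hba-a1, the adult alpha globin, rose from 0, 0.329 and 119 CPM to 3.85, 54.7 and 3455 (log2 fold change 4.22, edgeR adjusted p 0.0356), and without E16 replicate 12 it did not pass (1.66, edgeR adjusted p 0.217), nor without any of the E13 replicates other than the library labelled 2 (adjusted p 0.0572 to 0.0591). Hbb-bs has the most reads of the list, by mean, at both ages. For microglia 8 were higher and 0 lower of 8 tested in edgeR, and 5 were higher in DESeq2. Their sum was 0.736, 2.598 and 27.1 CPM at E13 and 0, 16.9 and 942 at E16. Without replicate 12 both of the 2 genes still tested were higher. C1qa, a complement gene, rose from 0, 0 and 3.28 CPM to 0, 1.43 and 121 (log2 fold change 4.94, edgeR adjusted p 0.0113), its highest level in replicate 12, and without that library it was not among the genes tested. The ages overlap in all of these.

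Vascular and meningeal genes were few. Among endothelial genes 2 were higher and 1 lower of 5 tested, with a sum of 99.8, 121 and 162 CPM at E13 and 102, 127 and 344 at E16, and 1 was higher of 4 without E16 replicates 2 and 12. Cldn5, the junction protein that defines them, rose from 0, 0.592 and 5.58 CPM to 0, 3.29 and 111 (log2 fold change 3.28, edgeR adjusted p 0.0176), with overlap and its highest level in replicate 12, and without E16 replicates 2 and 12 it did not pass (1.84, edgeR adjusted p 0.0646). Slco1c1, a thyroxine transporter that astroglia also use, rose from 0, 0 and 0.442 CPM to 6.37, 45.3 and 68.3 (log2 fold change 7.92, edgeR adjusted p 1.49e-10), without overlap, and Mfsd2a, a lipid transporter abundant in every library and the highest of the list, fell from 90.3, 110.2 and 122 CPM to 22.5, 67.7 and 88.5 (log2 fold change -0.76, edgeR adjusted p 3.82e-04). Mural genes gave 3 higher and 1 lower of 6 tested, with a sum of 30.2, 46.9 and 66.7 CPM at E13 and 18.1, 34.4 and 192 at E16, and without replicate 12, 2 higher and 1 lower of 4. Notch3, the receptor gene with the most reads of the list and shared with the Notch list, fell from 26.1, 39.5 and 61.4 CPM to 6.39, 13.98 and 21.1 (log2 fold change -1.57, edgeR adjusted p 1.91e-07), without overlap. Of 5 meningeal genes tested, 0 passed in edgeR (0 at an unadjusted p under 0.05, 0 higher and 0 lower in DESeq2), their sum was 3.28, 11.5 and 318 CPM at E13 and 7.15, 21.97 and 816 at E16, and Col1a1 has the most reads of them by mean, at 0, 1.72 and 116 CPM at E13 and 1.52, 4.48 and 229.7 at E16 (log2 fold change 0.46, edgeR adjusted p 0.767). Without the library labelled E13 replicate 2, 2 of the 5 were higher, Col1a1 among them (3.29, adjusted p 0.0333).

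Oligodendrocyte precursor genes stood at 3.28, 6.79 and 16.3 CPM at E13 and 6.701, 45.5 and 128 at E16, and 2 were higher and 0 lower of 3 tested. Olig1, a factor of the oligodendrocyte lineage, rose from 0.72, 1.18 and 2.69 CPM to 3.02, 30.8 and 85.2 (log2 fold change 4.63, edgeR adjusted p 1.02e-06), without overlap. Olig2, its relative, rose from 0, 2.39 and 5.52 CPM to 0.335, 10.3 and 31.1 (log2 fold change 2.42, edgeR adjusted p 0.00107), with overlap. Neu4, a marker of later cells of that lineage, was at 3 reads or fewer in all 20 libraries.

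Some calls given above were lost in an alternative. The Gm28438 class of mitochondrial reads holds a part of the libraries, among them E13 replicate 2 and E16 replicates 2 and 12. Within it Cdk4, Cdkn2d, Hes5, Olig2, Slc17a7, Ss18 and Tubb5 did not pass (adjusted p 0.0501 to 0.205). Within the mt-Nd3 class Cdkn2d, Cldn5 and Gad1 did not (0.0919 to 0.755). With a replicate block Fos (0.126) and Hbb-y (0.196) did not, and without a minimum of the mean count Slc17a7 did not (0.0831). Over all alternatives log2 fold changes ran from -0.45 to -0.30 in Cdk4, 0.25 to 0.60 in Cdkn2d and -0.94 to -0.69 in Hes5. They ran from 1.87 to 2.70 in Olig2, -1.08 to -0.62 in Slc17a7, -0.87 to -0.63 in Ss18 and 0.30 to 0.39 in Tubb5. Cldn5 moved more (0.28 to 4.36), as did Gad1 (1.31 to 4.79).

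The same ages are available in mosaic and KO cells of the Cdk5r1 set, so the change with age was compared across genotypes. For mosaic minus control 0 of 12794 genes (0%) passed in edgeR, with 269 (2.1%) at an unadjusted p under 0.05, and 0 in DESeq2. For KO minus control 5 genes passed in edgeR (0.0391%), all with a larger rise in KO, with 1756 (13.7%) at an unadjusted p under 0.05, and 60 in DESeq2. Among these 5, named after their values were seen, Neurl1b, a Notch pathway ligase, differed by 1.47 (adjusted p 0.0215) and the amino acid transporter gene Slc7a4 by 1.53 (0.0340). Tbc1d24, a vesicle trafficking gene, differed by 1.07 (0.0229) and Camta2, a transcriptional activator, by 0.93 (0.0215). KO libraries of E16 differ among themselves: replicates 8 to 11 held 1070 to 2273 CPM of Hba-a1 and 63.5 to 66.8% uniquely aligned reads, the other 7 at most 106.6 CPM and 70.1 to 74.0%. Without these 4 libraries 0 of 12681 genes passed, with 1246 (9.83%) at an unadjusted p under 0.05, and the differences were 1.29 for Neurl1b, 1.23 for Slc7a4, 1.01 for Tbc1d24 and 0.87 for Camta2 (adjusted p 0.115 to 0.122). Counts on the whole Cdk5r1 gene, its kept part in mutant alleles included, rose by 1.79 in KO and 1.46 in mosaic cells, against 1.67 in control, with interactions of 0.12 (edgeR adjusted p 0.889) and -0.20 (1.00).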

How the data were processed

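Libraries were sorted from mouse cortex and sequenced with SMART-Seq v2. The authors aligned reads to mm10 with STAR and deposited its counts per gene. The unstranded column of these deposited count files was used here, since sense and antisense columns held equal shares (0.493 to 0.500). Over the 20 libraries 27.8% of reads were unmapped, 11.8% outside genes, 4.81% ambiguous and 55.7% on genes.

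Control libraries of E13 and E16 with at least 50% uniquely aligned reads were compared. E13 replicate 4, below that share, was left out. So was mosaic E16 replicate 5, with 22.4% uniquely aligned reads. Mosaic E13 replicates 2 and 5 held 2243 and 2610 reads on genes, under a minimum of 100000, and were left out too. Genes with a mean count above 10 were tested by edgeR 4.0.16 (R 4.3.3, TMM scaling, quasi-likelihood F test, adjusted over all tested genes, threshold 0.05). This fit and that of DESeq2 were run on 1 simulated set, in which 100 of 12645 genes changed by a log2 of 1 and 100 by 2. False calls were 5.14% in edgeR and 11.6% in DESeq2, and 71 and 79% of the smaller changes were recovered. The set used dispersions of the edgeR fit, held far fewer changed genes than passed in the data and had no libraries apart. It therefore does not give the share of false calls in the data or rank the tools. The interaction fits were not tested in this way. CPM use TMM factors of the kept libraries of the Cdk5r1 set, which are controls of E13, E16 and P0 and mosaic and KO libraries of E13 and E16. Mosaic and KO libraries of P0 were not used. Interactions with genotype were fitted over E13 and E16 of 3 genotypes. Library measures were compared by exact permutation.

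Named genes are Cdk5r1, the 12 genes with the smallest adjusted p per direction at a mean of at least 20 CPM, and per list up to 6 passing genes in its main direction, up to 3 in the other, and its most abundant member. For cell types outside the lineage, the member of highest level in any library was named too. The text takes a subset of these and adds 13 genes after their values were seen, for the check of libraries, the interactions or as known markers. Some genes of these lists and 1 gene of the interactions are not reported here. Members and lists were chosen with earlier results of these data known.

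Alternatives were DESeq2 1.42.0, RLE and upper-quartile scaling, other count, depth and alignment minimums, thinning, covariates, read classes of mitochondrial genes, a replicate block, a fit of 3 genotypes and leaving out libraries. Promoters are RefSeq promoters of GRCm38.p6. Tables and figures used Python 3.11.15, pandas 2.3.3 and matplotlib 3.10.9.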

Additional observations from a re-analysis of the deposited data

Results flagged for a closer look

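Within the 8 control libraries of E13, the gap of the highest or lowest library to its neighbour was divided by the whole range for 4 library measures, each list total, each gene named with reads at E13 and AA465934, a further transcript of chromosome 11. This ratio passed Dixon's limit in 24 of 216 groups of values. Chance alone passes about 1 in 20 of independent groups with normal spread, which these are not. List sums hold the genes named beside them, and some levels rest on few reads. Genes of cell types outside the lineage were also named for the highest level in any library. The count is therefore not a test against chance. The 12 libraries of E16 were not examined in this way.

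The library labelled E13 replicate 2 stood apart in 10 of them. Its red-cell, meningeal and oligodendrocyte precursor sums were the highest (ratios 0.892, 0.949 and 0.626), as were Hbb-y (0.979), Hbb-bs (0.790), Hba-a1 (0.859), Col1a1 (0.954), Id1 (0.757) and Sparcl1 (0.631). The globin genes are part of the red-cell sum and Col1a1 is part of the meningeal sum, so these are not separate results. Gm10039 was the lowest there (0.629), but it was named for the check of this library after its values were seen, so its ratio adds nothing separate. Cdk5r1 in the same library was the lowest of its age without passing this limit.

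Replicate 6 was highest in the microglial sum (0.773), C1qa (0.617), Gad1 (0.593) and Camta2 (0.681), and lowest in Efnb1 (0.651). Replicate 1 was highest in Ccne1 (0.526), Gria2 (0.574), Igf2bp1 (0.580), Pkm (0.552) and Zbtb20 (0.707). Replicate 9 was highest in the axon guidance sum (0.568) and lowest in Cdk4 (0.600) and Pafah1b3 (0.541). Sp8 was highest in replicate 7 (0.547).

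Between genotypes, the change with age differed for 5 genes by a test of the interaction in KO minus control, among them Slc7a4 (1.53), Neurl1b (1.47), Tbc1d24 (1.07) and Camta2 (0.93, with an E13 control library apart as above). Without KO E16 replicates 8 to 11 none of them passed.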

How the results depend on the processing

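Over 37 alternatives to the comparison of ages, 20 of them leaving out 1 library, the number of passing genes ran from 3654 to 6706. No gene that passed both in an alternative and in the fit described passed in opposite directions. Within libraries of the Gm28438 class of mitochondrial reads 3654 genes passed, 2062 higher and 1592 lower. The mt-Nd3 class, with fewer libraries still, gave 5138, 2573 higher and 2565 lower. E13 replicate 2 and E16 replicates 2 and 12 are all of the Gm28438 class, and whether they lower its count was not tested. Beyond 2-fold, a mean count above 50 gave 1498 genes, 891 higher and 607 lower, with fewer genes tested, and thinning to the smallest library gave 1540, 869 of them higher. Leaving out 1 library gave 5918 to 6706 passing genes and 2348 to 2500 beyond 2-fold, and no library moved these counts by over 1.5 times. Chosen after seeing the data, leaving out E16 replicates 2 and 12 gave 6690, and E13 replicate 2 as well 6495.

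Replicate numbers were used as a replicate block in 1 fit, with 5112 genes passing. Deviations of equally numbered libraries correlated at -0.168 to 0.206, and numbers were not taken as pairs.

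For KO minus control 11 genes passed at a mean count above 50 and 60 in DESeq2 (49 higher, 11 lower), against 5. Without KO E16 replicates 8 to 11, chosen after seeing the data, 0 passed, with fewer libraries. For mosaic minus control 0 passed in each alternative run (269 at an unadjusted p under 0.05 in edgeR, 300 in DESeq2).

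Of 174 named genes tested, 154 kept their side of the threshold in each alternative that tested them, and those of them that passed kept direction. Insm1 turned to -0.32 (adjusted p 0.589) when E13 replicate 4, with under 50% uniquely aligned reads, was kept, and the cause was not tested. Calls lost in an alternative were those of Camta2, Cdk4, Cdkn2d, Cldn5, Fos, Gad1, Hba-a1, Hbb-bs, Hbb-y, Hes5, Insm1, Olig2, Slc17a7, Ss18 and Tubb5, and Col1a1, Eomes, Fam114a2, Galnt10 and mt-Cytb passed in some alternatives alone. Scaling by the total on all genes moved Cdk5r1 and each list sum by less than the spread between libraries, except the Reelin and CDK5 sum (log2 ratio of medians 0.37 to 0.27).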
